A study of Mus with 6 samples.

Results

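The Schlafen genes Slfn1, Slfn2, Slfn3, Slfn5, Slfn8 and Slfn9 were described in mouse CD4+ T cells activated with or without neutralization of VEGF-B. The 6 members were picked by their gene symbols, and all 6 were present among the 10995 protein-coding genes in the table. The family itself had been selected on measured values of these libraries, because Slfn2 had been seen to be lower with anti–VEGF-B. The comparison of the treatments is therefore given for the members as a description, and no p-value is printed for them. Naive CD4+ T cells came from the spleen of WT mice. Activation lasted 3 days in both groups and used anti-CD3 at 5 μg/mL, anti-CD28 at 2 μg/mL and 100 U/mL of IL-2. The cells received an antibody to VEGF-B in 3 libraries and normal goat IgG as control in the other 3, each at 1 μg/mL. The labels give neither the age of the mice nor whether the libraries of a group came from separate animals or cultures, so that p-values measure only the spread between these libraries, which may be technical.

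Schlafen proteins share a core domain and bind or cut RNA, and many of their genes are induced by type I interferon. In the mouse they fall into short proteins (Slfn1 and Slfn2), intermediate ones (Slfn3) and long ones that carry a helicase-like part (Slfn5, Slfn8 and Slfn9). Slfn1 was first described as a gene that slows the growth of thymocytes. Loss of Slfn2 in mice leaves T cells unable to stay quiescent, and the SLFN2 protein binds transfer RNAs and shields them from cleavage when T cells are activated.

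Values were taken as FPKM, that is, reads scaled for transcript length and for the size of the library. This unit was inferred, since the methods speak of raw counts but the values are not whole numbers and came from tools that give FPKM. Comparisons of level between genes rest on it, whereas a gene's ratio between libraries does not rest on the length scaling. No counts accompany them, so the depth and the counting error are unknown. FPKM summed to between 260058 and 276622 per library, while the median FPKM of genes averaging at least 1 FPKM was 5.43 to 5.67 with anti–VEGF-B and 6.20 to 7.08 with IgG. IgG replicate 2 stood apart, with a score of 27.2 on the first principal component against 8.76 and 11.8 in the other IgG libraries, and so did anti–VEGF-B replicate 3, at -21.0 against -13.1 and -13.5. CD4 T cell markers were present, Cd4 being at 68.4 ± 5.56 FPKM in the IgG libraries and 70.0 ± 4.56 in those with anti–VEGF-B (SD, n = 3 each). Of 13 such markers 11 were listed, of which 2 fell (Cd3e and Cd5, 18.2% beside 23.8% of all genes) and none rose (limma, adjusted p under 0.05, beside 4.87% of all genes, with 0 higher at an unadjusted p under 0.05), whereas after median centring 0 fell and 3 rose. After median centring, 807 of all 8816 genes tested fell and 1365 rose. The summed level of the CD4 T cell markers was 729 to 771 FPKM with anti–VEGF-B and 721 to 813 with IgG.

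Markers of other cells were at lower sums. B cell markers (2 of 10 listed) summed to at most 2.15 FPKM in any library, CD8 T cell markers (2 of 2) to at most 4.69 and erythroid markers (1 of 7) to at most 1.82, each with overlapping groups. NK cell markers (5 of 9) summed to 7.07 to 9.47 FPKM with anti–VEGF-B and to 9.72 to 12.0 with IgG, and the 2 of 9 dendritic cell markers to 3.17 to 3.38 and 3.66 to 4.95. These lists were thus lower with anti–VEGF-B in every library, as Slfn2 and Slfn1 were, and their part in the Schlafen differences was not tested. The 6 of 15 myeloid markers listed summed to between 13.3 and 14.6 FPKM with anti–VEGF-B and to between 14.2 and 37.5 with IgG. The highest sum was that of IgG replicate 3, where Lyz2 was at 16.4 FPKM against 3.26 to 4.19 in the other 5 libraries. Without this library the log2 fold changes were -1.36 for Slfn1, -1.07 for Slfn2, -0.39 for Slfn9, -0.32 for Slfn5, -0.31 for Slfn3 and -0.28 for Slfn8, those of Slfn3 and Slfn9 being nearer to 0 than with all libraries. In bulk RNA, fewer cells expressing a gene and less RNA per cell cannot be told apart.

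The 6 genes lie in a single cluster on chromosome 11 of GRCm38, spanning 264 kb. In their order along the chromosome they are Slfn5 (82951349 to 82964840, plus strand), Slfn9 (82978390 to 82991830, minus strand), Slfn8 (83002158 to 83020810, minus strand), Slfn2 (83065112 to 83070678, plus strand), Slfn1 (83116849 to 83122670, plus strand) and Slfn3 (83191330 to 83215154, plus strand). Slfn1 and Slfn2, the most abundant members, were also the most compact, with gene spans of 5822 and 5567 bp against 13441 to 23825 bp for the others. They are direct neighbours among the listed genes, 46.2 kb apart. RefSeq places 9 Schlafen genes on this chromosome, among them Slfn4 and Slfn10-ps inside the span and Slfn14 beyond Slfn3, which were not analysed here. Members of such a cluster arose by duplication and resemble each other, Slfn8 and Slfn9 above all, so that reads could have been split among them and with the genes not analysed. The lncRNA Slfn5os overlaps Slfn5. The libraries were stranded, but the strand setting of the quantification is not given in the sources used here.

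In control cells the order of levels was Slfn2, Slfn1, Slfn3, Slfn8, Slfn9 and Slfn5. It was the same in the anti–VEGF-B libraries and without any one of the IgG libraries. Slfn2 was at 57.9 ± 10.97 FPKM with IgG (SD, n = 3), a level exceeded by 5.73% of the listed genes, and Slfn1 at 28.5 ± 6.51, exceeded by 12.3%. Together they made up 92.5% to 93.6% of the summed Schlafen FPKM of an IgG library. Slfn3 followed at 3.31 ± 0.667 FPKM, Slfn8 at 1.70 ± 0.157, Slfn9 at 1.01 ± 0.296 and Slfn5 at 0.330 ± 0.0939. In this order the 3 IgG values of each gene lay above those of the next. The Schlafen transcripts of activated control cells were thus mainly those of the short members.

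Slfn2, the gene tied to T cell quiescence, was at 49.5, 70.3 and 54.0 FPKM in IgG replicates 1 to 3 and at 32.2, 29.0 and 22.3 in the anti–VEGF-B replicates. The lowest IgG library lay well above the highest anti–VEGF-B library. Its mean with anti–VEGF-B, 27.8 ± 5.03 FPKM, was 48.1% of that with IgG. The log2 fold change of FPKM + 1 was -1.03 (standard error 0.155), a difference that 55 of the 8816 genes tested surpassed in the downward direction. Slfn2 went from a mean rank of 643 ± 113 among the listed genes of an IgG library to 1336 ± 223 with anti–VEGF-B, where rank 1 is the most abundant gene. Ranks do not depend on the scaling between libraries.

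Slfn1, the other short member, was at 24.4, 36.0 and 25.1 FPKM with IgG and at 11.5, 13.2 and 8.46 with anti–VEGF-B. Every anti–VEGF-B value was under every IgG value. The mean with anti–VEGF-B was 11.1 ± 2.42 FPKM, or 38.9% of the control mean, with a log2 fold change of -1.29 (standard error 0.177). Of all genes tested, 22 had a more negative value. Its mean rank went from 1372 ± 259 with IgG to 2918 ± 421 with anti–VEGF-B.

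**Figure D1:**
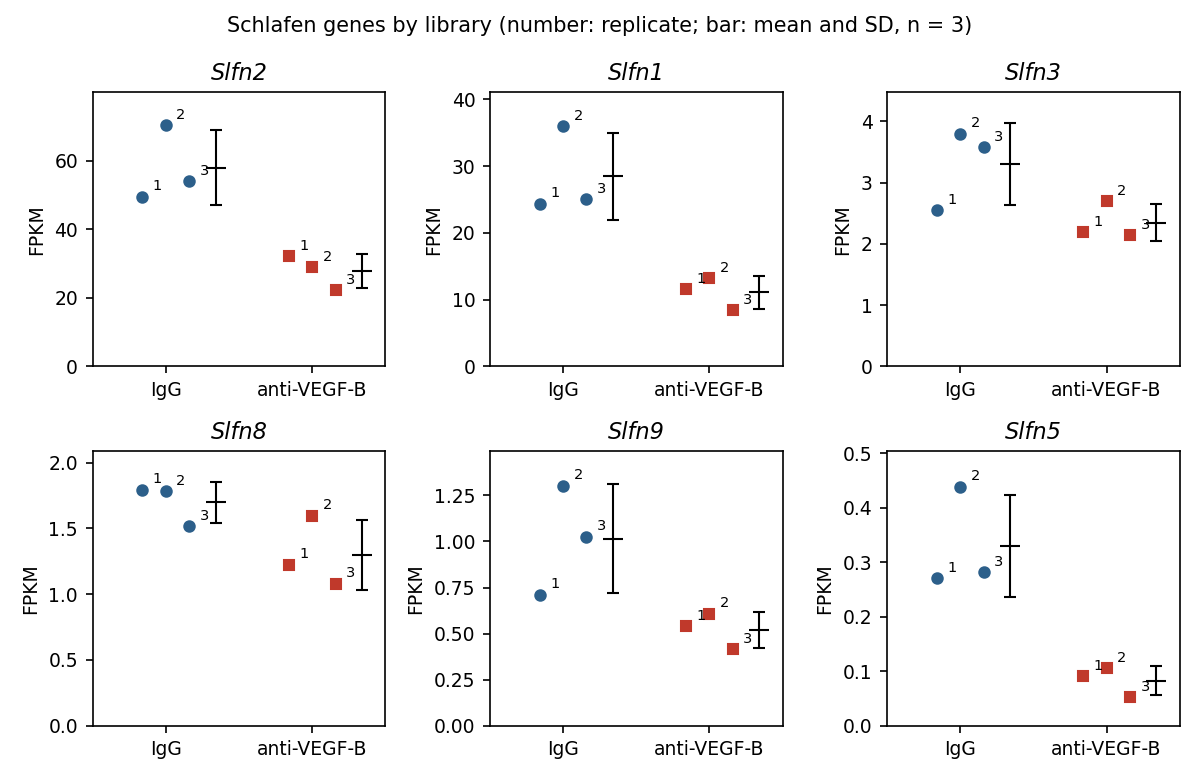
FPKM of the 6 Schlafen genes (y axis, linear from 0, a scale for each gene) in each IgG (circles) and anti–VEGF-B (squares) library, numbered by replicate, with the mean and SD of 3 libraries at the right of each group. The groups are apart for Slfn2, Slfn1, Slfn9 and Slfn5 and overlap for Slfn3 and Slfn8.

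Slfn3, the intermediate member, was at 2.55, 3.80 and 3.58 FPKM with IgG and at 2.20, 2.69 and 2.15 with anti–VEGF-B. The groups overlapped, since IgG replicate 1 lay under anti–VEGF-B replicate 2. The mean with anti–VEGF-B was 2.35 ± 0.302 FPKM, 70.9% of the control, with a log2 fold change of -0.36 (standard error 0.136). Slfn8, a long member, was at 1.80, 1.78 and 1.52 FPKM with IgG and at 1.22, 1.60 and 1.08 with anti–VEGF-B. These groups overlapped as well, and the log2 fold change was -0.24 (standard error 0.115). The mean rank of Slfn8 was 7900 ± 268 with IgG and 7933 ± 379 with anti–VEGF-B, which is less than the spread between replicates. Its mean FPKM of 1.3 ± 0.267 with anti–VEGF-B was 76.5% of the control.

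Slfn9 and Slfn5 had means under 1 FPKM over the 6 libraries and were fitted only with all 10995 listed genes. Slfn9 was at 0.711, 1.3 and 1.03 FPKM with IgG and at 0.539, 0.609 and 0.415 with anti–VEGF-B, with a log2 fold change of -0.40 (standard error 0.119). Its groups were apart by a narrow margin. Slfn5, whose human counterpart is known as a nuclear protein, was at 0.270, 0.438 and 0.282 FPKM with IgG and at 0.0906, 0.105 and 0.0523 with anti–VEGF-B. The groups were well apart, and the mean with anti–VEGF-B, 0.0826 ± 0.0272 FPKM, was 25.0% of the control. On the scale of log2(FPKM + 1), which understates changes of low genes, the difference was -0.30 (standard error 0.0737). With a pseudocount of 0.1 it was -1.23. At such levels, without counts, the precision of single values of Slfn5 is unknown.

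Across the family, 4 of 6 members had every anti–VEGF-B library below every IgG library, an arrangement found for 38.4% of all listed genes. Of the 4 members averaging at least 1 FPKM, Slfn1 and Slfn2 were among the 23.8% of genes called lower in the fit of all such genes (limma, adjusted p under 0.05). In the fit without this filter, Slfn1, Slfn2, Slfn5 and Slfn9 were among the 20.6% called lower. Because this comparison led to the choice of the family, these counts are no test of the members, and nothing is read from them. The median log2 fold change of the 6 members was -0.38, beside -0.15 for all genes tested and -0.15 for all listed genes.

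The downward shift of all genes depended on scaling. Quantile normalization moved the median of all log2 fold changes to 0.0077, cyclic loess to 0.0019, median centring to 0.049 and scaling to Actb to -0.096. Under these scalings Slfn2 had log2 fold changes of -0.99, -1.01, -0.83 and -0.96, and Slfn1 had -1.19, -1.19, -1.08 and -1.22. Both short members thus stayed near their deposited differences. Slfn3 was at -0.11, -0.13, -0.16 and -0.30, and Slfn8 at -0.0086, -0.0024, -0.035 and -0.19. Slfn9 was at -0.22, -0.22, -0.17 and -0.37, and Slfn5 at -0.17, -0.16, -0.071 and -0.28. No member changed sign. Relative to the median of all genes in the deposited scale, the differences were -1.13 for Slfn1, -0.88 for Slfn2, -0.25 for Slfn9, -0.20 for Slfn3, -0.14 for Slfn5 and -0.083 for Slfn8.

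**Figure D2:**
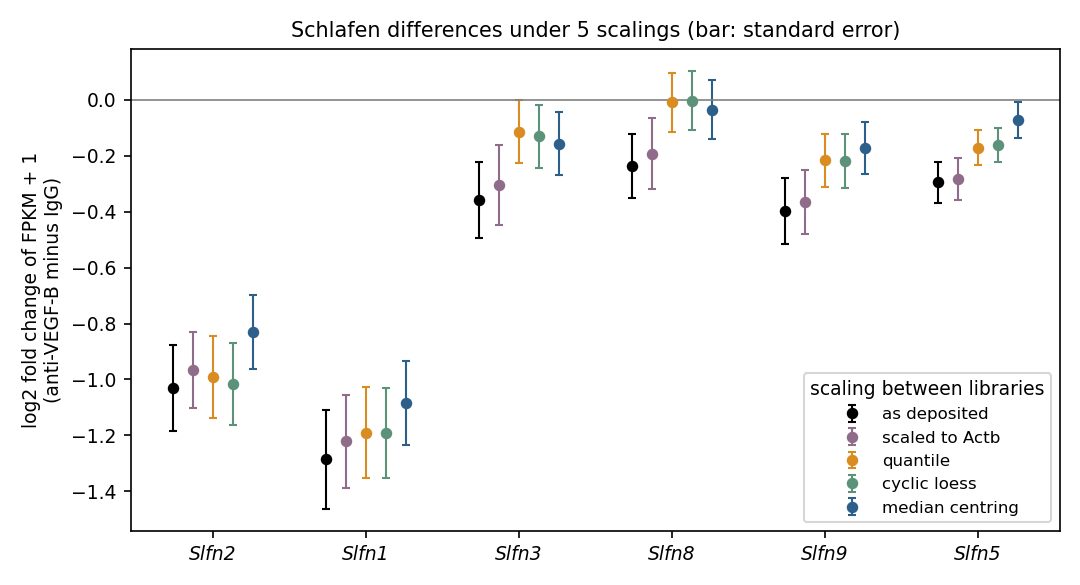
Log2 fold change of FPKM + 1 between anti–VEGF-B and IgG (y axis) for each Schlafen gene (x axis) as deposited and under 4 other scalings between libraries, with standard errors. Slfn2 lies between -1.03 and -0.83 and Slfn1 between -1.29 and -1.08, while Slfn8 approaches 0 under 3 of the scalings.

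Ratios between members within a library need no scaling between libraries. Slfn2 exceeded Slfn1 by a factor of 2.03, 1.95 and 2.15 in the IgG libraries and of 2.79, 2.19 and 2.64 in the anti–VEGF-B libraries. The values with anti–VEGF-B were all higher, by a small margin between anti–VEGF-B replicate 2 and IgG replicate 3. Slfn1 made up 30.6% ± 1.18 of the summed Schlafen FPKM of an IgG library and 25.6% ± 2.14 of that of an anti–VEGF-B library, while Slfn2 took 62.5% ± 0.643 and 64.5% ± 3.01, with overlapping groups. Against the long member Slfn8, Slfn1 stood at ratios of 13.6, 20.2 and 16.5 with IgG and 9.42, 8.29 and 7.84 with anti–VEGF-B. The ratio of Slfn8 to Slfn5 was instead higher with anti–VEGF-B, at 16.5 ± 3.72 against 5.37 ± 1.28 (SD, n = 3 each). The summed level of the family was 79.2, 114 and 85.4 FPKM with IgG and 47.8, 47.2 and 34.5 with anti–VEGF-B, with no overlap.

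Within a treatment, libraries also varied in parallel. Anti–VEGF-B replicate 3 was the lowest of its group for 6 of 6 members, and IgG replicate 2 the highest of its group for 5 of 6, Slfn8 being the exception. The correlation of deviations from the group means was above 0 for 15 of 15 pairs of members, from 0.25 (Slfn3 and Slfn8) to 0.93 (Slfn3 and Slfn9), and was 0.91 for Slfn1 and Slfn2. These coefficients come from 6 libraries, which share the same normalization, and are a description. Taking out the group means leaves fewer free values than libraries. Anti–VEGF-B replicate 3 and IgG replicate 2 also stood apart on the first principal component of all tested genes, which held 65.1% of the variance. The share of positive pairs among all genes was not computed, so the parallel is not shown to be particular to the family. Without IgG replicate 2 the log2 fold change was -0.88 for Slfn2 and -1.11 for Slfn1, and without anti–VEGF-B replicate 3 it was -0.89 and -1.12.

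Among 8812 other genes averaging at least 1 FPKM, those whose log2 levels followed Slfn2 most closely over the 6 libraries were Wipf1 (Pearson's r = 0.9993), Fam8a1 (0.9991), Crls1 (0.9990), Rab21 (0.9976) and Egr1 (0.9972). The libraries fall into the treatment groups, and 1056 genes had an r above 0.95, so that a high r was common. Slfn1 had an r of 0.9869 with Slfn2, which 152 other genes reached. For deviations from the group means alone, the closest genes were Gata3 (0.9982), Trim14 (0.9976), Fam8a1 (0.9973), Tm9sf3 (0.9966) and Cdk8 (0.9953), Fam8a1 being on both lists. These are the highest of 8812 values, each from 6 libraries with the group means taken out. How many genes came near them was not counted, so they are no sign of a link to Slfn2.

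Genes around the cluster were examined by position. Within 500 kb of it the table held 12 other genes, 5 before Slfn5 and 7 beyond Slfn3, of which 10 were tested. Lig3, a DNA ligase gene, fell by 0.61 on the log2 scale (adjusted p = 0.0145 from limma), as did Zfp830, also by 0.61 (adjusted p = 0.0274), and Taf15, an RNA-binding protein gene, fell by 0.37 (adjusted p = 0.0167). The other 7 tested neighbours did not pass, among them the gene next to Slfn5, Nle1, at -0.10, and, on the side of Slfn3, Ap2b1 at -0.091. The 3 of 10 that fell stand beside 23.8% of all genes. No tested neighbour had a log2 fold change as negative as that of Slfn1 or Slfn2, the range being -0.61 to -0.091. Since the fall of Slfn2 led to the choice of the family, this contrast with the neighbours is only a description.

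**Figure D3:**
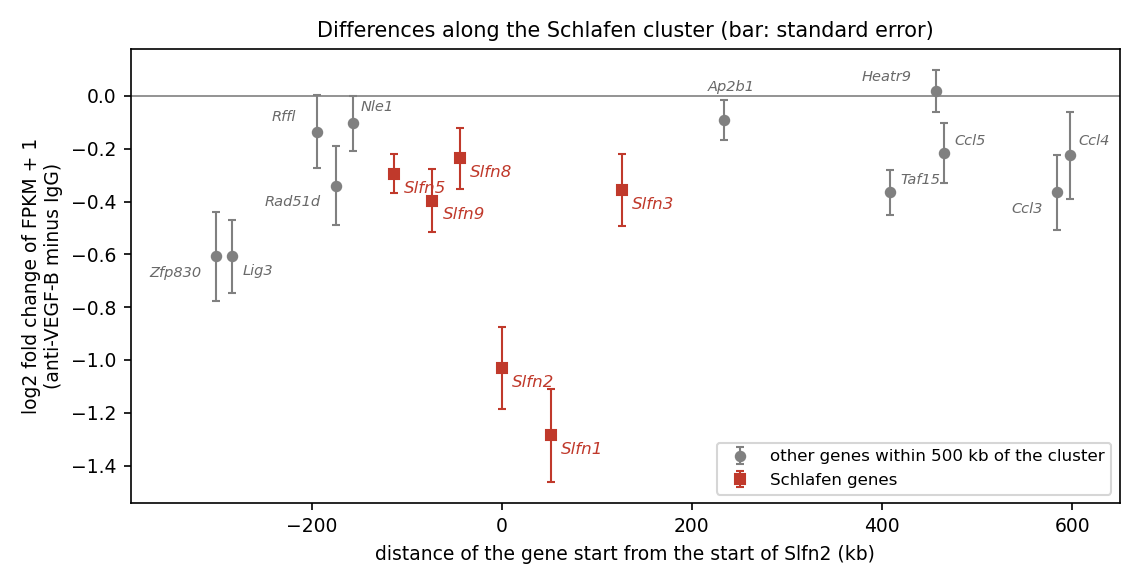
Log2 fold change of FPKM + 1 between anti–VEGF-B and IgG with its standard error (y axis) against the distance of each gene's start from that of Slfn2 in kb (x axis), for the 6 Schlafen genes (squares) and other genes (circles) around them. Genes averaging under 1 FPKM (Slfn5, Slfn9, Heatr9 and Ccl3) are from the fit without a filter. Slfn2 and Slfn1 lie at -1.03 and -1.29, below every other gene shown.

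As Schlafen genes are interferon-inducible, other interferon response genes were counted. Of 78 genes in this list 70 were present and 43 tested, and 25 fell, none rose (limma, adjusted p under 0.05, with 0 higher at an unadjusted p under 0.05) and 18 did not pass. Their median log2 fold change was -0.42. The share that fell, 58.1%, stands beside 23.8% of all genes. It leaves out the listed genes averaging under 1 FPKM, among them Ifit1, Ifit3, Mx1, Rsad2, Irf7, Oas2 and Oas3. With quantile normalization 16 fell and 2 rose, with median centring 17 and 2, with cyclic loess 16 and 2 and with scaling to Actb 20 and 0. Of all 8816 genes tested, 913 fell and 880 rose with quantile normalization and 807 and 1365 with median centring. With cyclic loess these counts were 938 and 852, and with scaling to Actb 1309 and 365. The largest falls in the list were those of interferon-inducible GTPases. Tgtp1 had a log2 fold change of -1.60 (limma, adjusted p = 0.00469, standard error 0.191), with 34.8 ± 11.5 FPKM in control and 10.5 ± 1.43 in treated cells, and Irgm2 went from 10.6 ± 2.85 to 3.19 ± 0.792 (-1.46). Tgtp2 (-1.42) and Iigp1 (-1.33) followed, each lower in 3 of 3 anti–VEGF-B libraries than in any IgG library. Tgtp1 and Tgtp2 are near-identical copies, so their values are uncertain. Some classical members of the response, picked out after their values were seen, did not pass, with log2 fold changes of -0.10 for Isg15, 0.14 for Usp18, 0.066 for Bst2 and 0.057 for Gbp2. Isg15 was above 0 under quantile normalization, median centring and cyclic loess, and Gbp2 below 0 under cyclic loess. Under the former 3 scalings Usp18 and Dhx58 were the 2 genes that rose.

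The receptor and signal genes of type I interferon numbered 18, 5 of which also stood in the response list. Of 17 tested, 9 fell (52.9%, beside 23.8% of all genes) and 2 rose (beside 4.87%), and their median was -0.40. Irf9, a transcription factor gene of this pathway, had -0.58 (adjusted p = 0.0130 from limma), while Stat2 had -0.42 and did not pass (adjusted p = 0.0521 from limma). Of the receptor chains, Ifnar1 had -0.50 (adjusted p = 0.0259 from limma) and Ifnar2 -0.041 (adjusted p = 0.775 from limma), the latter above 0 under each other scaling. Socs1, a feedback inhibitor, had -0.96 (adjusted p = 0.00714 from limma) and the kinase gene Tyk2 -0.60 (adjusted p = 0.0259 from limma). Ifnar1 and Tyk2 passed when scaled to Actb, but not under quantile normalization, median centring or cyclic loess. Irf9 and Socs1 passed under each of these scalings. The 2 that rose were Irf2 (0.32) and Ptpn2 (0.34), a phosphatase gene. After median centring 5 genes of the list fell and 4 rose, beside 807 and 1365 of all 8816 genes tested. The count of called genes was 3 without anti–VEGF-B replicate 3.

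**Figure D4:**
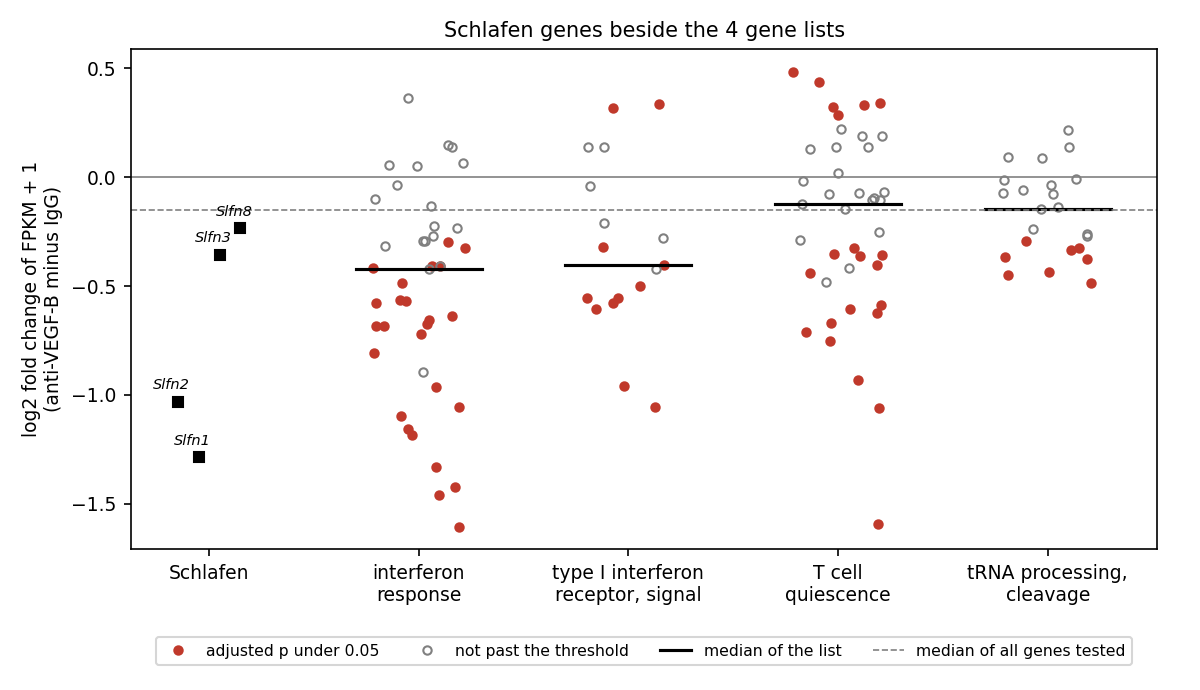
Log2 fold change of FPKM + 1 between anti–VEGF-B and IgG (y axis) for the 4 Schlafen genes averaging at least 1 FPKM (squares) and for the tested genes of 4 lists (circles, filled where the adjusted p was under 0.05), with the median of each list (line) and of all genes tested (dashed, -0.15). Slfn1 and Slfn2 lie at -1.29 and -1.03, within the range of the interferon response genes that fell and within that of the quiescence genes that fell. The quiescence list has points on both sides of 0.

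Slfn2 belongs to the genes that keep T cells quiescent, and the others of that kind did not share one direction. Of 42 such genes 41 were tested, 15 fell (36.6%, beside 23.8% of all genes) and 6 rose (beside 4.87% of all genes). The median was -0.12, beside -0.15 for all genes. With median centring 8 fell and 12 rose, beside 807 and 1365 of all 8816 genes tested. The median of the list was then 0.078, beside 0.049 for all genes. The largest differences were those of Txnip, which binds thioredoxin and limits glucose uptake (log2 fold change -1.59, adjusted p = 0.00488 from limma), Dusp6, a MAP kinase phosphatase gene (-1.06, adjusted p = 0.00469), Ccr7, a lymph node homing receptor gene (-0.93, adjusted p = 0.00714), and Klf10 (-0.75, adjusted p = 0.00574). Foxo1, a transcription factor gene of naive and quiescent T cells, rose from 32.3 ± 2.45 to 45.6 ± 4.02 FPKM (0.48, adjusted p = 0.00875 from limma). Klf4, a factor that restrains T cell proliferation, rose as well (0.44, adjusted p = 0.0182 from limma). The count of called genes was 11 without anti–VEGF-B replicate 3.

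Of 18 activation markers, 11 fell (61.1%, beside 23.8% of all genes) and none rose (limma, with 0 higher at an unadjusted p under 0.05, beside 4.87% of all genes that rose). Their median was -0.37, beside -0.15 for all genes. With quantile normalization 9 fell and 1 rose, and with median centring 5 and 1. Of all 8816 genes tested, 913 fell and 880 rose with the former and 807 and 1365 with the latter. As deposited, 16 of the 18 markers were below 0, and 7 did not pass. Among the 7 were Cd40lg (0.20) and Tfrc (0.098), which were above 0. Cd40lg was the marker that rose under both of these scalings. The part of the activation markers in the Schlafen differences was not tested.

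SLFN2 acts on transfer RNAs, and genes of transfer RNA processing and cleavage were counted for that reason. Of 23 tested, 8 fell (34.8%, beside 23.8% of all genes) and none rose (limma, with 0 higher at an unadjusted p under 0.05), with a median of -0.15, equal to that of all genes. The largest falls were those of Ssb, which binds newly made transfer RNAs (log2 fold change -0.48, adjusted p = 0.00621 from limma), Elac1 (-0.45), Xpot, the nuclear export receptor of transfer RNA (-0.44), and Pop1, a subunit of RNase P (-0.38). With quantile normalization 1 gene of the list fell, beside 913 of all 8816 genes tested. With median centring 1 fell and 3 rose, beside 807 and 1365 of all genes. Rnh1, the inhibitor of the transfer RNA–cutting enzyme angiogenin, was the most abundant gene of this list, at 70.9 FPKM on average, and had a log2 fold change of 0.091 that did not pass.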

How the data were processed

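RNA-Seq libraries of activated CD4+ T cells (3 with anti–VEGF-B, 3 with IgG) were compared. The authors aligned reads to GRCm38 with hisat2 2.1.0, used StringTie 1.3.3 and Ballgown 2.10.0, and deposited 1 value per gene and library, naming no normalization between libraries. The methods mention raw counts, but the deposited values are not whole numbers and were taken as FPKM, a unit inferred from the values and tools. Low values shared no step worth 1 read (at most 0.935% of genes under 0.3 FPKM shared a ratio), so depth is unknown and no count model was run.

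With R 4.3.3 and limma 3.58.1, a model with no covariate was fitted to log2(FPKM + 1) for 8816 genes averaging at least 1 FPKM (empirical Bayes with trend, two-sided, Benjamini-Hochberg over these genes, called at an adjusted p under 0.05). The fit was tested on simulated data with independent noise for each gene and library. These data held no shift shared by the genes of a library, so the effect of such shifts on the calls was not tested. The members, gene lists, tests and alternatives were chosen with earlier results of these data known. The lists were interferon response, type I interferon receptor and signal, quiescence, activation, transfer RNA genes and cell markers, written from general knowledge. Named were the members, the 5 genes most like Slfn2 by each measure, the 4 largest called differences of a list, genes within 500 kb of the cluster, and Ifnar1, Ifnar2, Stat2, Irf9 and Actb. Some genes that this rule names are not reported here. Others named as examples (Foxo1, Klf4, Irf2, Ptpn2, Rnh1, Isg15, Usp18, Dhx58, Bst2, Gbp2, Cd40lg, Tfrc, untested interferon response genes and cell markers) were chosen after their values were seen.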

Additional observations from a re-analysis of the deposited data

How the results depend on the processing

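The number of genes called across the table, 2528, was 1331 with a mean of at least 5 FPKM, 1674 when scaled to Actb, 12 with no moderation of the variance and 859 to 2467 when a library was left out (leaving out anti–VEGF-B replicate 3 gave 859, IgG replicate 2 gave 1359 and anti–VEGF-B replicate 1 gave 1679). The called genes were 2099 lower and 429 higher as deposited, 913 and 880 with quantile normalization, 938 and 852 with cyclic loess and 807 and 1365 with median centring. The count of Schlafen genes past the threshold, no test of a family chosen on this comparison, was 2, and 4 with no filter, 0 with no moderation (limma without empirical Bayes, 2 of 4 at an unadjusted p under 0.05) and 2 or 3 when a library was left out. No moderation also left 0 called genes in the interferon response, type I interferon and quiescence lists, where 25, 13 and 24 had an unadjusted p under 0.05. The share of all genes at this unadjusted threshold is not given here, so nothing is read from the unadjusted counts of the members or lists. The interferon response count of 25 was 16 with a mean of at least 5 FPKM and 16 to 26 when a library was left out (16 without anti–VEGF-B replicate 3). The type I interferon count of 11 was 3 to 11 when a library was left out (7 without anti–VEGF-B replicate 1 or 2), and the quiescence count of 21 was 11 to 21 (the lowest of both without anti–VEGF-B replicate 3). The Slfn2 log2 fold change ran from -1.14 to -0.88 when a library was left out and kept its sign under each alternative run, as did those of the other 5 members. The median of the members, -0.38, was -0.19 with quantile normalization, -0.19 with cyclic loess, -0.16 with median centring, -0.94 with a pseudocount of 0.1, -0.69 over the 4 members above 1 FPKM, -1.16 over the 2 above 5 FPKM and -0.50 to -0.28 when a library was left out. The order of levels held for 6 of 6 members in each alternative. The labels number replicates alike in both groups, but same-numbered libraries deviated together little (correlations of -0.030, 0.11 and 0.089), and not every library correlated best with its own number. With a replicate block, 2578 genes were called, 2 Schlafen, 26 interferon response, 12 type I interferon and 21 quiescence genes among them, and the log2 fold change of Slfn2 stayed at -1.03. A filter leaves fewer genes and an omitted library fewer libraries, but the cause of these shifts was not tested.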
